A study of Homo sapiens with 9 samples.

Results

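Cyclic AMP signalling runs from G proteins through adenylyl cyclases to protein kinase A (PKA) and its anchors, and 33 genes of that machinery were followed in H295R, a steroid-producing line from a human adrenocortical carcinoma. The genes were chosen by name, for their place in the pathway, and were matched by current or older symbol to the array's annotation. Of the 33, 32 were measured by a probe set that carries a single gene symbol, among 19775 genes measured that way, and RAPGEF4 was not analysed here. Each gene was read by its brightest such probe set over all 9 arrays. All cells were labelled 3 h, in 3 groups of 3 arrays: 100 nM torcetrapib, 100 nM angiotensin II, and DMSO, the vehicle, and whether treated cells also received DMSO is not stated. Torcetrapib, labelled CP-529414, inhibits the cholesteryl ester transfer protein, and angiotensin II is the peptide hormone that drives aldosterone secretion. The study asked whether such an inhibitor switches on the renin-angiotensin-aldosterone response in adrenal cells. H295R is 1 tumour line, and nothing in the labels assigns the arrays of a group to separate cultures. The p-values therefore cover the spread between these arrays alone, and that spread may be technical.

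In the adrenal cortex, corticotropin acts through a receptor coupled to the stimulatory G protein, whose alpha subunit is GNAS. That subunit turns on adenylyl cyclase, which makes cyclic AMP, while the inhibitory alpha subunits GNAI1, GNAI2 and GNAI3 restrain it. Cyclic AMP binds the regulatory subunits of PKA and frees the catalytic subunits, which phosphorylate the transcription factor CREB and proteins of steroid synthesis. A-kinase anchoring proteins (AKAPs) hold PKA at particular places in the cell, the PKI peptides block free catalytic subunits, and the exchange factors RAPGEF3 and RAPGEF4 answer cyclic AMP without PKA. Angiotensin II, in contrast, acts in the cortex mainly through a receptor coupled to Gq and through calcium.

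The machinery moved little with either treatment. Against DMSO, torcetrapib changed 0 of 32 members and angiotensin II changed 2, PRKAR2B lower and AKAP7 higher, each by under 1.2-fold. Between torcetrapib and angiotensin II 4 members differed: GNAI1 and PRKAR2B were higher and ADCY6 and PRKACA lower with torcetrapib, the largest 1.29-fold. Calls were made with limma on log2 expression at an adjusted p of 0.05, with Benjamini-Hochberg adjustment over all 19775 genes. With torcetrapib against DMSO 1.16% of all genes were called, and at an unadjusted p of 0.05 the members numbered 3 of 32 (9.38%), against 13.3% of all genes. Without DMSO replicate 2 calls over all genes numbered 917 and members called 2, against 229 and 0 with all arrays. Without DMSO replicate 1 or 3, or any 1 torcetrapib array, calls over all genes numbered 83 to 105. With angiotensin II against DMSO 6.12% of all genes were called (3.36% higher and 2.76% lower), and the 2 members are 6.25%. Between torcetrapib and angiotensin II it was 11.3% of all genes (4.61% higher and 6.68% lower), and the 4 members are 12.5%. At an unadjusted p of 0.05 members numbered 3 with angiotensin II against DMSO and 8 between the treatments, against 16.5% and 24.8% of all genes. In the comparisons that gave calls, the members' share lay near that of all genes. The comparisons share arrays: DMSO serves both treatments, and each treatment's arrays serve the third comparison.

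The intervals bound the change only by the spread between these arrays, for the brightest probe sets and in the model without the index of RNA quality described below. In all 3 comparisons the unadjusted 95% interval of every measured member, by its brightest probe set, lay within a 1.5-fold change either way. The same held for 98.2% of all genes with torcetrapib against DMSO, 96.0% with angiotensin II against DMSO and 94.4% between the treatments. A tighter bound of 1.2-fold held for 24, 21 and 19 of the 32 members in the same order, against 50.0%, 48.5% and 41.1% of all genes. The median member changed by -0.03 on the log2 scale with torcetrapib, by -0.00 with angiotensin II and by -0.03 between the treatments, where the median gene changed by -0.03, 0.01 and -0.04. Groups did not overlap in 4 of 32 members with torcetrapib against DMSO (all genes, 16.5%), in 7 with angiotensin II (17.6%) and in 8 between the treatments (28.6%).

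**Figure D1:**
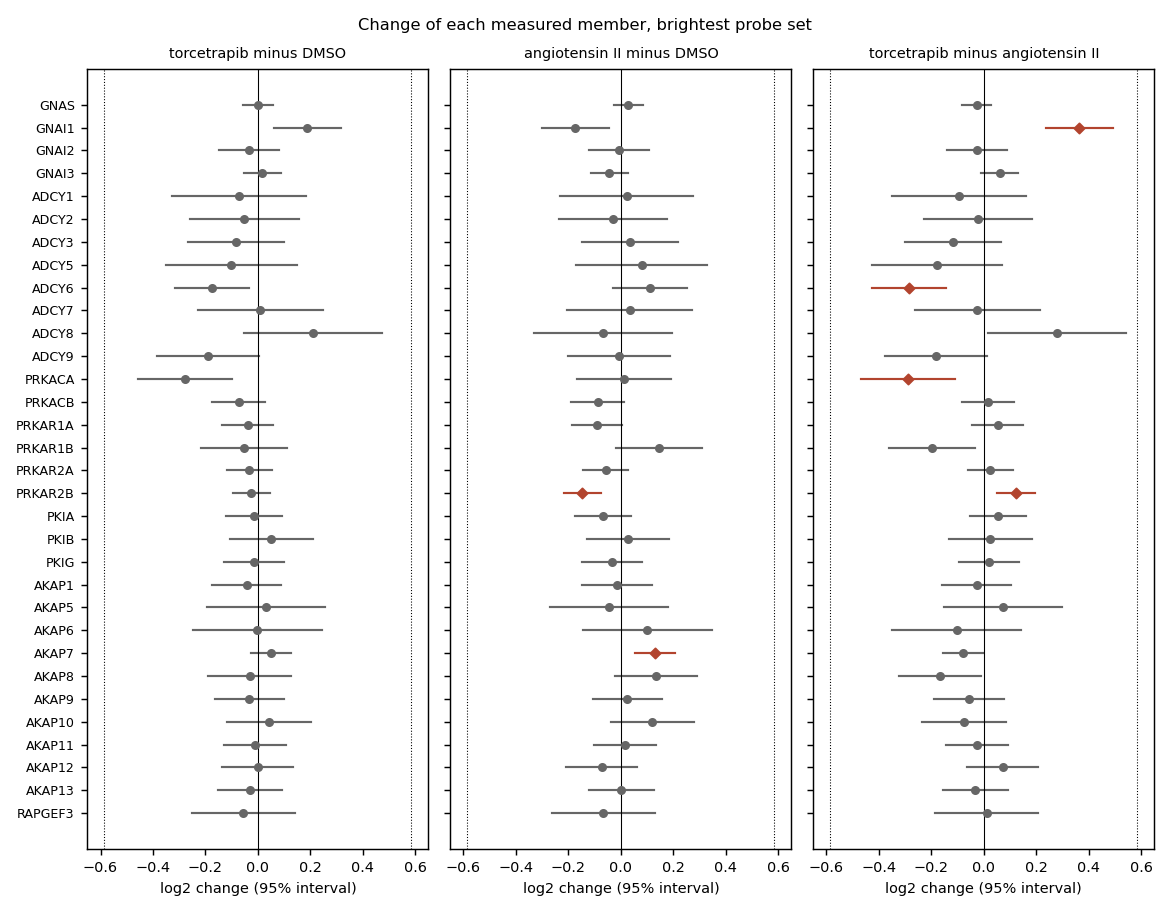
Log2 change of each of the 32 measured members, with its unadjusted 95% interval, in 3 panels, torcetrapib minus DMSO, angiotensin II minus DMSO and torcetrapib minus angiotensin II. Red diamonds are members called by limma at an adjusted p of 0.05, grey circles are not called, and the dotted lines mark 1.5-fold. No interval reaches a dotted line, and the calls number 0, 2 and 4 from left to right.

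A sign of RNA quality was highest on the torcetrapib arrays and stands beside every result with torcetrapib. This index is a log2 difference, the 5′ control probe set less the 3′ one, and the mean over GAPDH and ACTB is used. The torcetrapib arrays gave -0.24 ± 0.03 (SD, n = 3), the angiotensin II arrays -0.62 ± 0.02 and the DMSO arrays -0.50 ± 0.22. DMSO replicate 2, at -0.28, lay at the level of the torcetrapib arrays, and DMSO replicate 1, at -0.72, was the lowest of all. Two-sided exact permutation tests gave p = 0.1 for torcetrapib against either other group, the smallest that 3 against 3 arrays allow. With the index in the model 0 of the 4 members differed between torcetrapib and angiotensin II at an adjusted p of 0.05, and calls over all genes numbered 280, against 2232 without it. The index varied little within the treated groups, so its fitted slope rests mostly on the 3 DMSO arrays. It also differs between the treatments, so the model with it is less precise there. The SE of the GNAI1 difference was 0.11 with the index and 0.06 without it. The GNAI1 difference itself was 0.36 without the index and 0.35 with it. Those of ADCY6, PRKACA and PRKAR2B went from -0.28, -0.29 and 0.12 to -0.13, -0.03 and 0.06. Why these calls ended was not tested. Serial numbers in the labels run on without a gap within each group, so that order and treatment cannot be told apart. Of the adrenocortical markers 7 of 8 were measured, with a mean level from 9.64 to 9.72 with torcetrapib, 9.73 to 9.84 with angiotensin II and 9.50 to 9.67 with DMSO. With angiotensin II against DMSO FDX1 (0.66), MC2R (0.41) and STAR (0.20) rose, and no other of the 7 was called. With torcetrapib against DMSO FDX1 alone rose (0.37, limma adjusted p = 0.00717). Between the treatments FDX1 (-0.29), CYP17A1 (-0.20) and STAR (-0.13) were lower with torcetrapib. The 7 adrenal medulla markers averaged 5.60 to 5.71, 5.72 to 5.78 and 5.62 to 5.73 in the same order. Of these SCG2 alone was called, with a rise of 0.58 with angiotensin II against DMSO. It was lower with torcetrapib than with angiotensin II (-0.48), and gave no call with torcetrapib against DMSO. The 10 measured fibroblast, endothelial and immune markers averaged 4.99 to 5.04, 5.05 to 5.21 and 4.97 to 5.08 in the same order, with 3 of them below 4.87, the lower quartile of all genes. COL3A1 was the only 1 of the 10 called in any comparison, lower with torcetrapib than with angiotensin II (-0.36). In such bulk samples fewer cells of a type and less RNA per cell cannot be told apart.

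Among the alpha subunits, GNAS gave no call by its brightest probe set. It read 13.63, 13.61 and 13.60 with torcetrapib, 13.63, 13.61 and 13.68 with angiotensin II, and 13.65, 13.57 and 13.63 with DMSO. Its log2 change was 0.00 with torcetrapib and 0.03 with angiotensin II, each against DMSO (limma adjusted p = 0.995 and 0.705), and all 9 arrays lay between 13.57 and 13.68. GNAI2 changed by -0.03 and -0.01 and GNAI3 by 0.02 and -0.04 in the same order, without a call.

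GNAI1, one of the inhibitory subunits, gave the largest difference between the treatments among the brightest probe sets of the 32 members. It read 9.84, 9.91 and 10.04 with torcetrapib, 9.63, 9.49 and 9.58 with angiotensin II, and 9.72, 9.72 and 9.79 with DMSO. The 3 groups do not overlap: torcetrapib lay above DMSO and angiotensin II below it. Torcetrapib exceeded angiotensin II 1.29-fold (log2 change 0.36 ± 0.06 SE, limma adjusted p = 0.00099). Neither treatment passed against DMSO, where torcetrapib gave 0.19 (adjusted p = 0.166) and angiotensin II -0.17 (adjusted p = 0.116). The second GNAI1 probe set, 227692_at, changed by 0.20 between the treatments, 0.04 with torcetrapib and -0.16 with angiotensin II, with no call. With the index in the model the difference was 0.35 (adjusted p = 0.178), nearly as large but without the call (range over its alternatives 0.000659 to 0.178).

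Of the 8 adenylyl cyclases 0 changed against DMSO and 1 differed between the treatments. ADCY6, an isoform that calcium and inhibitory G proteins hold down, read 8.91, 8.91 and 8.85 with torcetrapib, 9.22, 9.17 and 9.14 with angiotensin II, and 9.10, 8.92 and 9.17 with DMSO. All torcetrapib arrays lay below all others, with DMSO replicate 2 next to them. Torcetrapib was 1.22-fold below angiotensin II (log2 change -0.28 ± 0.07 SE, limma adjusted p = 0.0108). Against DMSO it gave -0.17 (adjusted p = 0.258), and a call without DMSO replicate 2, where the change was -0.25 (adjusted p = 0.0266, range 0.0266 to 1.00). With the index in the model the difference between the treatments was -0.13 (adjusted p = 0.825, range 0.00188 to 0.825), and the call also ended without angiotensin II replicate 1 (adjusted p = 0.0565) or torcetrapib replicate 3 (adjusted p = 0.0527).

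The other cyclases gave no call in any comparison. ADCY1 and ADCY8, which calmodulin with calcium stimulates, changed by -0.07 and 0.21 with torcetrapib and by 0.02 and -0.07 with angiotensin II. ADCY3 gave -0.08 and 0.03, ADCY5, the closest relative of ADCY6, -0.10 and 0.08, and ADCY9 -0.19 and -0.01. ADCY2 and ADCY7, isoforms that the beta-gamma subunits of G proteins boost, gave -0.05 and 0.01 with torcetrapib and -0.03 and 0.03 with angiotensin II. ADCY8 was dim, from 3.95 to 4.53 with torcetrapib, from 3.76 to 3.95 with angiotensin II and at 3.95 on every DMSO array, all under the lower quartile.

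The catalytic subunit PRKACA, whose activating mutations cause cortisol-producing adrenal adenomas, had the most negative change of the 32 members in both comparisons with torcetrapib. It read 8.70, 8.89 and 8.74 with torcetrapib, 9.16, 8.97 and 9.07 with angiotensin II, and 9.25, 8.91 and 9.02 with DMSO. Torcetrapib lay below both other groups on every array, narrowly so beside DMSO replicate 2. Between the treatments the log2 change was -0.29 ± 0.08 SE (1.22-fold, limma adjusted p = 0.0371), and against DMSO it was -0.28 (adjusted p = 0.140). Without DMSO replicate 2 the change against DMSO was -0.35 and was called (adjusted p = 0.0242, range 0.0242 to 1.00). The call between the treatments was fragile: with the index in the model the change was -0.03 (adjusted p = 0.982, range 0.0164 to 0.982), and by the mean of its probe sets it turned to 0.03. The dim second probe set, 216234_s_at, went the other way, at 5.15 ± 0.08 with torcetrapib and 4.81 ± 0.18 with angiotensin II (SD, n = 3). PRKACA also lost that call with arrays centred on their medians, without the intensity trend, or without angiotensin II replicate 1 or 3 or torcetrapib replicate 1 or 3 (adjusted p from 0.0635 to 0.156). PRKACB, the other catalytic subunit, changed by -0.07 with torcetrapib and by -0.09 with angiotensin II, with no call.

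PRKAR2B, a regulatory subunit of type II PKA, fell with angiotensin II. It read 11.89, 11.89 and 11.92 with torcetrapib, 11.78, 11.74 and 11.81 with angiotensin II, and 11.89, 11.95 and 11.93 with DMSO. The angiotensin II arrays lay below the other 6, and the torcetrapib and DMSO arrays overlapped. The fall was 1.11-fold against DMSO (log2 change -0.15 ± 0.03 SE, limma adjusted p = 0.0130), and torcetrapib exceeded angiotensin II by 0.12 ± 0.03 (adjusted p = 0.0274). Torcetrapib itself gave -0.02 against DMSO (adjusted p = 0.822). With the index in the model the fall was still called, at -0.13 (adjusted p = 0.0388). It was lost with variances moderated without a trend (adjusted p = 0.197), with arrays centred on their medians (0.0678), without DMSO replicate 3 (0.0551) and without angiotensin II replicate 2 (0.0536), over a range of 0.00570 to 0.197. The difference between the treatments was 0.06 with the index in the model (adjusted p = 0.831, range 0.0198 to 0.831), and it was lost without any 1 of the torcetrapib arrays or of angiotensin II replicates 1 and 2. PRKAR2A, the other type II subunit, changed by -0.03 and -0.06 with torcetrapib and angiotensin II, and PRKAR1B by -0.05 and 0.15, with no call.

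PRKAR1A, the type I subunit whose loss causes primary pigmented nodular adrenal disease, showed how much a reading depends on its probe set. By the brightest one it read 12.52, 12.59 and 12.72 with torcetrapib, 12.59, 12.58 and 12.50 with angiotensin II, and 12.66, 12.69 and 12.59 with DMSO, with changes of -0.04 and -0.09 against DMSO and no call. By 200604_s_at it read 11.11, 11.20 and 11.25 with torcetrapib, 10.15, 10.04 and 10.25 with angiotensin II, and 9.87, 11.07 and 10.41 with DMSO. On that probe set, singled out after its values were seen, the DMSO arrays spread from 9.87 (replicate 1) to 11.07 (replicate 2). When every single-symbol probe set was tested on its own, 200604_s_at differed by 1.04 ± 0.21 SE between torcetrapib and angiotensin II (limma adjusted p = 0.00734). With the index in the model it differed by 0.02 (adjusted p = 0.986).

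**Figure D2:**
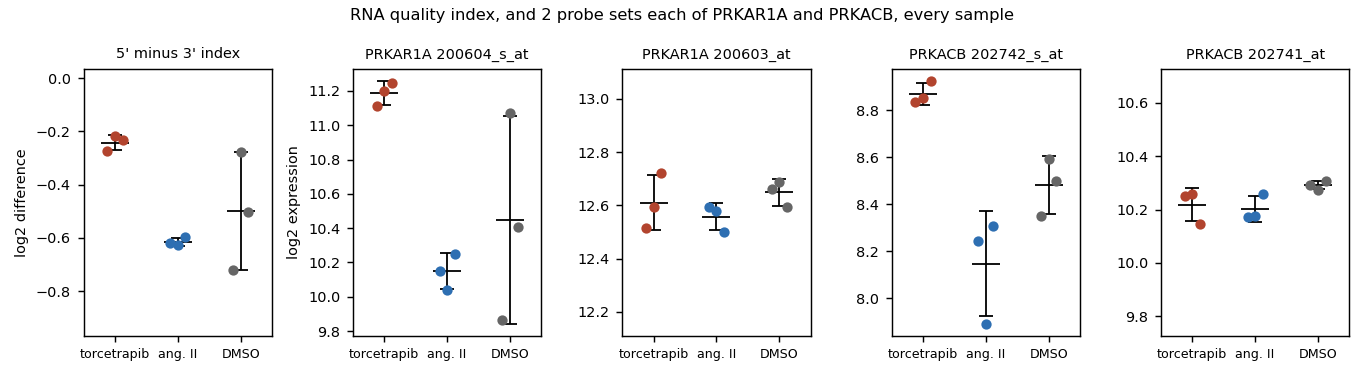
The 5′ minus 3′ index (log2 difference) and the log2 expression of 2 probe sets each of PRKAR1A and PRKACB, on every array, for torcetrapib, angiotensin II and DMSO (ang. II is angiotensin II). Points are arrays and the black bar is the mean ± SD (n = 3). The index, 200604_s_at and 202742_s_at are highest with torcetrapib, whereas 200603_at and 202741_at, the brightest probe sets of these genes, overlap between torcetrapib and angiotensin II.

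Other members also split between probe sets. Of the members' 99 single-symbol probe sets, 15 differed between torcetrapib and angiotensin II (15.2%, against 11.6% of all probe sets). Of these 11 were higher and 4 lower with torcetrapib (7.22% and 4.37% of all probe sets). With the index in the model 0 differed by limma, with 0.810% of all probe sets called. These probe sets were singled out after their values were seen. AKAP5 by 207800_at differed by 1.30 ± 0.27 SE (adjusted p = 0.00975), with 5.88 ± 0.27 with torcetrapib, 4.58 ± 0.25 with angiotensin II and 4.78 ± 0.70 with DMSO (SD, n = 3). PRKACB by 202742_s_at differed by 0.72 ± 0.10 (adjusted p = 0.00108), with 8.87 ± 0.05 with torcetrapib, 8.15 ± 0.22 with angiotensin II and 8.48 ± 0.12 with DMSO. AKAP10 by 236006_s_at differed by 0.70, PRKAR2A by 204843_s_at by 0.61, GNAI3 by 201179_s_at by 0.56 and AKAP1 by 210625_s_at by 0.40. Each of these genes gave no call by its brightest probe set. Probe sets lower with torcetrapib were ADCY6, AKAP13 by 222024_s_at (-0.31, adjusted p = 0.0145) and 209534_x_at (-0.28, adjusted p = 0.0337), and GNAS by 228173_at (-0.49, adjusted p = 0.0453). The part of RNA quality in these differences was not tested beyond the model with the index, where AKAP5 gave 0.26, PRKACB 0.50, AKAP10 0.45, PRKAR2A -0.06, GNAI3 0.13 and AKAP1 0.17. That model was less precise: the SE for PRKACB was 0.16 with the index and 0.10 without it.

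Torcetrapib against DMSO depended on a single control array at this level. It gave 0 called probe sets of members among 99 by limma, with 1.11% of all probe sets called. Without DMSO replicate 2 it gave 13, where 6.64% of all probe sets were called.

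With angiotensin II against DMSO 2 of the members' 99 probe sets were called, PRKAR2B lower and 1 of GNAS higher (3.63% of all probe sets, 2.17% higher and 1.46% lower). GNAS has 12 single-symbol probe sets, singled out here after their values were seen. The 6 brightest, all of a type that can bind several transcripts (_x_at), changed between -0.04 and 0.04. By 228173_at GNAS read 7.16, 7.60 and 7.24 with angiotensin II, against 6.73, 6.44 and 6.77 with DMSO, and the groups do not overlap. That is a rise of 1.61-fold (log2 change 0.69 ± 0.14 SE, limma adjusted p = 0.0173 over all probe sets), and 0.60 with the index in the model (adjusted p = 0.0351). By 229274_at and 214157_at the changes were 0.59 and 0.45 without a call (adjusted p = 0.0805 and 0.142). When genes were read without _x_at and _s_at probe sets, 229274_at stood for GNAS and was called (0.59, limma adjusted p = 0.0359 over the genes left). With torcetrapib these 3 probe sets gave 0.20, 0.13 and 0.22 against DMSO. The GNAS locus makes several transcripts from alternative first exons, and the annotation used here does not say which of them each probe set reads. The call of 228173_at ended without DMSO replicate 2 (0.58, adjusted p = 0.0503).

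**Figure D3:**
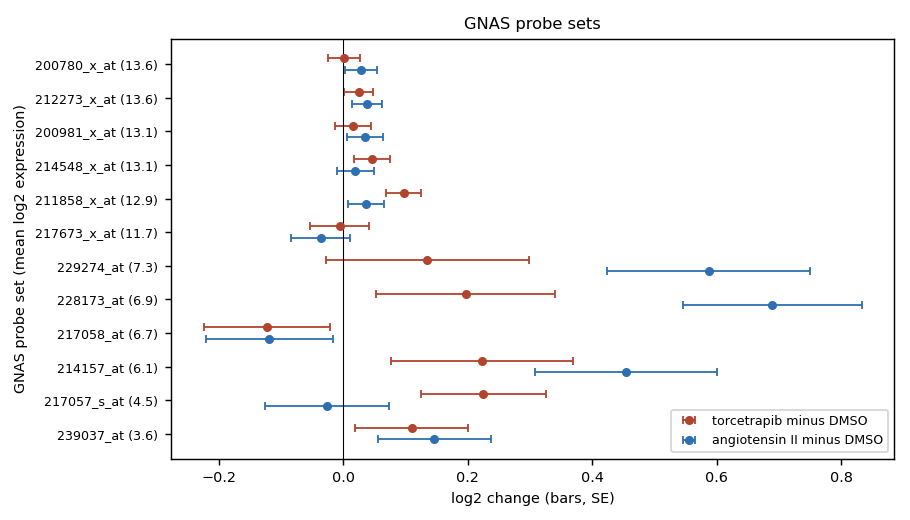
Log2 change of the 12 GNAS probe sets with torcetrapib (red) and with angiotensin II (blue), each minus DMSO, with bars of 1 SE, ordered from the brightest at the top, with the mean log2 expression in brackets. The 6 bright _x_at probe sets lie near 0, and 228173_at, 229274_at and 214157_at lie between 0.45 and 0.69 with angiotensin II.

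The PKA inhibitors gave no call in any comparison. PKIA, which binds free catalytic subunits and carries them out of the nucleus, read 10.07, 10.07 and 10.11 with torcetrapib, 10.08, 9.94 and 10.06 with angiotensin II, and 10.10, 10.06 and 10.14 with DMSO. The 3 groups overlap. PKIG changed by -0.01 with torcetrapib and -0.03 with angiotensin II, and PKIB, dim at 3.16 to 3.39 over the 9 arrays, by 0.05 and 0.03.

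AKAP7, an anchor that holds PKA at the plasma membrane, was the anchoring protein called by its brightest probe set. It read 11.75, 11.82 and 11.79 with torcetrapib, 11.92, 11.85 and 11.83 with angiotensin II, and 11.78, 11.70 and 11.74 with DMSO. Angiotensin II lay above both other groups on every array, while torcetrapib and DMSO overlapped. The rise against DMSO was 1.09-fold (log2 change 0.13 ± 0.04 SE, limma adjusted p = 0.0422). It ended in 12 of 16 alternatives, among them the index in the model (0.11, adjusted p = 0.111) and the omission of DMSO replicate 2 (0.126), DMSO replicate 3 (0.116), angiotensin II replicate 1 (0.195) or replicate 2 (0.0684), or of any 1 torcetrapib array (0.0577 to 0.0663), with a range of 0.0290 to 0.685. The other AKAP7 probe sets gave 0.22 by 205772_s_at and -0.12 by 211172_x_at.

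The remaining 9 anchors were not called by their brightest probe sets in any comparison, with changes against DMSO from -0.04 to 0.04 for torcetrapib and from -0.07 to 0.13 for angiotensin II. AKAP1, an anchor of the outer mitochondrial membrane, changed by -0.04 with torcetrapib and -0.01 with angiotensin II. AKAP5, which also binds calcineurin, gave 0.03 and -0.04, and AKAP6, of the nuclear envelope, gave -0.00 and 0.10. AKAP8, a nuclear anchor, gave -0.03 and 0.13, and AKAP9, of the centrosome and Golgi, -0.03 and 0.02. AKAP10 gave 0.04 and 0.12, AKAP11 -0.01 and 0.02, AKAP12 (gravin) -0.00 and -0.07, and AKAP13, which also activates RHOA, -0.03 and 0.00. RAPGEF3, the exchange factor also called EPAC1, read 5.80, 5.83 and 5.74 with torcetrapib, 5.85, 5.80 and 5.68 with angiotensin II, and 5.80, 5.95 and 5.79 with DMSO, with changes of -0.06 and -0.07 and no call.

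**Figure D4:**
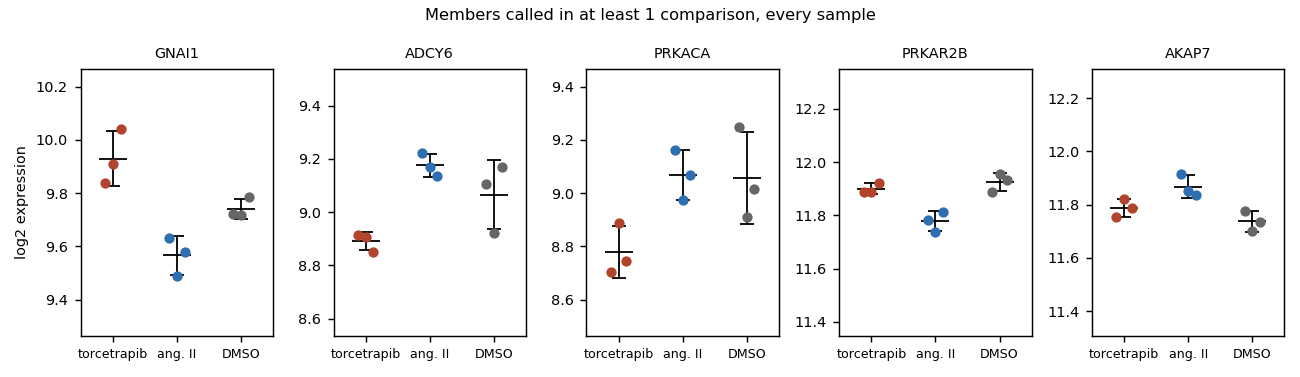
Log2 expression on every array of the 5 members called in at least 1 comparison, for torcetrapib, angiotensin II and DMSO (ang. II is angiotensin II). Points are arrays and the black bar is the mean ± SD (n = 3). GNAI1 is highest and ADCY6 and PRKACA are lowest with torcetrapib, while PRKAR2B is lowest and AKAP7 highest with angiotensin II.

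Read by the brightest probe set of each gene, a few neighbours of the machinery moved by more than its members. Single dimmer probe sets of members differed more than some of these neighbours, such as AKAP5 by 207800_at (1.30 between the treatments). The other probe sets of neighbours are not given here. Of 88 neighbouring pathway genes 80 were measured: other G protein subunits, other cyclases, kinases and anchors, phosphodiesterases, receptors that couple to the stimulatory G protein, and CREB factors with their coactivators and kinases. With torcetrapib against DMSO 3 rose and 2 fell (6.25%, against 1.16% of all genes), with angiotensin II 5 rose and 1 fell (7.50%, against 6.12%), and between the treatments 1 was higher and 10 were lower with torcetrapib (13.8%, against 11.3%). Some of these genes were known from earlier results on these arrays, so the shares describe the list only. Calls of single neighbours come from the main model. How they stand with the index in the model or with arrays left out is not given here.

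Upstream of the cyclases, a receptor rose with angiotensin II. PTGER4, a prostaglandin E2 receptor that couples to the stimulatory G protein, read 5.04, 5.21 and 5.05 with torcetrapib, 6.94, 6.44 and 7.02 with angiotensin II, and 4.60, 4.58 and 4.94 with DMSO. All angiotensin II arrays lay above all others, 4.27-fold above DMSO (log2 change 2.09 ± 0.14 SE, limma adjusted p = 6.10e-08). That fold starts from a dim reading, as the DMSO mean of 4.71 lay under the lower quartile of all genes, 4.87. Torcetrapib gave 0.39 against DMSO without a call (adjusted p = 0.240) and differed from angiotensin II by -1.70 (adjusted p = 9.83e-07). Of 17 measured receptors 2 rose with angiotensin II, the other being the corticotropin receptor MC2R with 0.41, and 0 changed with torcetrapib against DMSO. The median receptor changed by 0.08 with angiotensin II, where the median gene changed by 0.01.

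A phosphodiesterase and 2 genes of the CREB arm rose with both treatments. PDE4B, a cyclic AMP phosphodiesterase, read 7.27, 7.35 and 7.13 with torcetrapib, 8.12, 7.97 and 8.13 with angiotensin II, and 6.60, 6.63 and 6.82 with DMSO. It rose 1.48-fold with torcetrapib (limma adjusted p = 0.00454) and 2.62-fold with angiotensin II (adjusted p = 2.99e-08), and was 1.77-fold lower with torcetrapib than with angiotensin II (adjusted p = 1.78e-05). PDE2A, an isoform that cyclic GMP stimulates, was the only other of 14 measured phosphodiesterases called, and fell by 0.21 on the log2 scale with torcetrapib (adjusted p = 0.0435). SIK1, a kinase that restrains CREB coactivators, rose by 1.74 with torcetrapib and 2.81 with angiotensin II, and CREM, a CREB relative, by 0.28 (adjusted p = 0.00475) and 0.32 (adjusted p = 0.000188). CREM did not differ detectably between the treatments, with -0.04 ± 0.04 SE (adjusted p = 0.606). The coactivators CRTC2 and CRTC3 were lower with torcetrapib than with angiotensin II, with log2 changes of -0.27 (adjusted p = 0.0171) and -0.20 (adjusted p = 0.0139).

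Other G protein subunits moved little. GNA13, an alpha subunit that signals to RHOA, fell by 0.26 on the log2 scale with angiotensin II (limma adjusted p = 0.000205), and GNAQ, a subunit through which the angiotensin receptor signals, fell by 0.21 with torcetrapib (adjusted p = 0.0446). For GNAQ DMSO replicate 2 read 10.80, nearer to torcetrapib (10.70, 10.71 and 10.64) than the other DMSO arrays (10.94 and 10.94). Between the treatments GNA11 was lower with torcetrapib (-0.21) and GNG11 higher (0.15). Of 18 other cyclases, kinases and anchors 0 were called against DMSO with either treatment, and 3 were lower with torcetrapib than with angiotensin II: EZR (-0.31), AKAP17A (-0.28) and ACBD3 (-0.18).

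**Figure D5:**
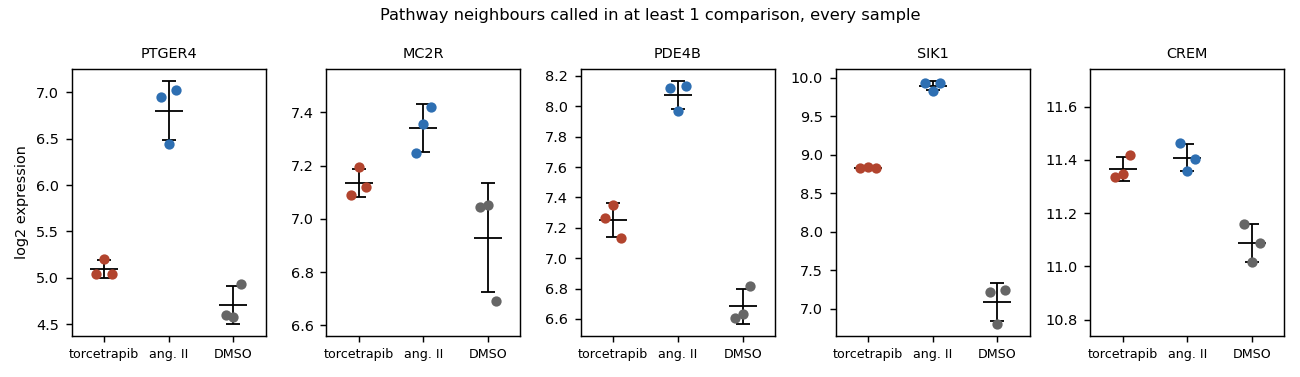
Log2 expression on every array of 5 pathway neighbours, the receptors PTGER4 and MC2R, the phosphodiesterase PDE4B, and SIK1 and CREM of the CREB arm, for torcetrapib, angiotensin II and DMSO (ang. II is angiotensin II). Points are arrays and the black bar is the mean ± SD (n = 3). PTGER4 is highest with angiotensin II, and PDE4B and SIK1 are intermediate with torcetrapib and highest with angiotensin II.

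Matches to the cyclic AMP response element, a sequence that CREB can bind, are shown for PRKAR1A and CREM. PRKAR1A is a member without a call by its brightest probe set, and CREM is a neighbour that rose. They were picked because both hold the match at nearly the same distance from a transcription start. The sequences are RefSeq's, on GRCh38.p14, 30 bases each, read 5′ to 3′ on the gene's strand, with the cyclic AMP response element TGACGTCA or its half-site in capitals.
PRKAR1A, chr17:68512370-68512399, plus strand: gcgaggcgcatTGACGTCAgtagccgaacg
CREM, chr10:35195841-35195870, plus strand: gagctgcacatTGACGTCAgctccgagtca
GNAS, chr20:58889122-58889151, plus strand: aagaggctggggCGTCAtcggggccggtta
PRKACA, chr19:14117794-14117823, minus strand: gcggcgctgagcCGTCAgtcagggcggcct
AKAP8, chr19:15379820-15379849, minus strand: gcgcggaagtagTGACGtgtgcgcctggtc
AKAP7, chr6:131135354-131135383, plus strand: cctgggctgccgTGACGccgcagtcgccgg
The full element begins 49 bases before one PRKAR1A start and 50 bases before one CREM start. The half-site (TGACG, or CGTCA on the other strand) begins 46, 49, 50 and 101 bases before a start of GNAS, PRKACA, AKAP8 and AKAP7. Promoter windows were found for 29 of the 33 members, 69 windows in all, and were searched on both strands over the 250 bases before each start. The full element was in 1 of the 69 (1.45%), against 1.65% of 35116 windows of all genes. The half-site, which lies within every full element too, was in 21 (30.4%), of 14 member genes, against 21.2%. A single stretch per gene is printed, and GNAS, PRKAR1A and CREM hold further half-sites that are not shown. A match describes the letters and does not show that CREB binds there.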

How the data were processed

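Total RNA of 9 H295R samples was hybridised to Affymetrix arrays of 54675 probe sets. Per the submitters' processing notes the deposited values come from RMA (robust multi-array averaging), and they read as log2 expression. The software behind it is not given in the sources. No further normalisation was applied. A single gene symbol was listed for 41091 probe sets, several for 1801 and none for 11721, and 62 controls were left out. Symbols were updated through gene identifiers. The members and gene lists were chosen with earlier results of these data known. Named in full were members called in any comparison, and the highest-reading member of a role without one, and GNAS and PRKAR1A were added after their values were seen.

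One limma 3.58.1 model (R 4.3.3) with 3 group means and an intensity trend was fitted to all 19775 genes. P-values are two-sided, and intervals 95% and unadjusted. The fit was tested on simulated data. Alternatives were variance without the trend, a dim filter, 2 scalings, other probe set choices, 2 groups only, the index, an adjusted p of 0.01 and each array left out. Tests of every probe set were added after seeing the data. The number of arrays limits precision.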

Additional observations from a re-analysis of the deposited data

How the results depend on the processing

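Members called with torcetrapib against DMSO stayed at 0 in every alternative except the omission of DMSO replicate 2, and numbered 0 to 2 over the omissions of single arrays. With angiotensin II against DMSO the 2 called members became 0 at an adjusted p of 0.01, without the intensity trend or with centred arrays, and 1 with the mean of probe sets, with only the 2 groups or with the index in the model (0 to 2 over omissions). Without _x_at and _s_at types they still numbered 2, but AKAP7 had no probe set left and GNAS entered (0.5867, adjusted p = 0.0359). The 4 that differed between the treatments became 1, 2, 2, 7 and 0 at 0.01, without the trend, with centred arrays, with the mean of probe sets and with the index (1 to 4 over omissions). The 7 add GNAI3, PRKAR1A, AKAP5 and AKAP10 and leave out PRKACA. Among values called in either setting, signs turned for PRKACA between the treatments (0.0263 with the mean of probe sets) and for AKAP10 (0.3869 with the mean of probe sets and 0.6517 without _x_at and _s_at types, both called), where dimmer probe sets enter, and a further 128 turns of sign were of values without a call. Over all genes, calls with angiotensin II numbered 767 at 0.01 and 956 to 1171 over omissions. With torcetrapib the 229 became 78 at 0.01, 50 without the trend, 120 with centring, 507 with repeated quantile normalisation, 108 with the mean of probe sets, 136 without _x_at and _s_at types, 145 with 2 groups, 76 with the index, and 83 to 917 over omissions. Between the treatments the 2232 became 1104 at 0.01, 280 with the index and 1351 to 2653 over omissions. The cause of these shifts was not tested. No paired analysis was possible because the labels give the groups no shared replicate numbers. Low signal, under the lower quartile of genes, limits ADCY8 and PKIB among the members, and the DMSO mean of the neighbour PTGER4.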
